A study of Mus musculus with 10 samples.

Results

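The keratins and keratin-associated proteins that build the hair shaft and its root sheaths were read out in sorted mouse epidermis lacking a Polycomb subunit. Members were every gene whose symbol starts with Krtap and 25 keratins named by symbol, taken from both deposited gene tables. Together the tables held 32 of them among 19090 genes, 20 keratins and 12 Krtap genes. Members made up 29 of the 18502 genes listed for Eed and 24 of the 18344 listed for Ring1, and 21 members were in both. Krt33b, Krt34, Krt74, Krt82 and Krt85 had no row in either table and were not analysed here. Of the 57 protein-coding Krtap genes in the GENCODE M21 annotation, 10 had a row in the Eed table and 8 in the Ring1 table.

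The cells were epidermis from between the hair follicles of mouse back skin at postnatal day 71, sorted as EpCAM positive, Sca1 positive and high in α6-integrin. All 4 groups are described as given 4-hydroxytamoxifen on shaved skin, 100 µl a day at 20 mg/ml for 4 days from postnatal day 50. The groups were Eed control (n = 3), Eed knockout (Eed -/-, n = 3), Ring1 control (n = 2) and a double knockout labelled Ring1a/b 2KO (Ring1a-/- Ring1b-/-, n = 2), and each knockout had controls of its own. Eed belongs to the core of Polycomb repressive complex PRC2, while PRC1 carries Ring1a (gene symbol Ring1) or Ring1b (gene symbol Rnf2) as its ubiquitin ligase. The labels name no Cre driver and no deleted exons, and give the control genotype only as control.

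A growing hair is made of concentric layers of keratinocytes, each with its own pairs of keratins. A type I (acidic) and a type II (basic) keratin combine into a filament: Krt25 to Krt28 pair with Krt71 to Krt74 in the inner root sheath, and the Krt31 to Krt40 series pairs with Krt81 to Krt86 in the cortex and cuticle of the shaft. Krtap proteins cross-link the shaft filaments through disulfide bonds, Krt75 belongs to the companion layer around the inner root sheath, and Krt79 marks cells of the hair canal and upper follicle. Outside the follicle, basal epidermis is instead known for Krt5 and Krt14, and the layers above it for Krt1 and Krt10.

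The promoters of the members were read first, because inner root sheath and shaft genes share a feature there. The RefSeq promoter table (GRCm38.p6, 250 bases before to 50 after each start) held 23 of the 32 members. The motif TATAAA, the core of the TATA box, occurred on either strand in 18 of these 23 windows (78.3%), against 13.6% of all 32851 promoters of that table. On the gene's own strand and with its first base 20 to 40 bases before the start it was found in 14 of 23 members (60.9%), against 1.99% of all promoters. The 100 bases before the start are printed for the 4 inner root sheath keratins with the largest differences in the Eed knockout, for the shaft keratin and the Krtap gene with most reads among those in the table, and for Krt79, which carried most of the member reads. All 7 genes lie on the minus strand, the bases run 5′ to 3′ as the gene reads, and capitals mark TATAAA.
Krt25, chr11:99322952-99323051: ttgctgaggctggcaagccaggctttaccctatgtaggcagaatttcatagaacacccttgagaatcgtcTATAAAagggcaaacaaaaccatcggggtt
Krt27, chr11:99351119-99351218: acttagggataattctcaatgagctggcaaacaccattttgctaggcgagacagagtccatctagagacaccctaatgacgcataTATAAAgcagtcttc
Krt71, chr15:101743098-101743197: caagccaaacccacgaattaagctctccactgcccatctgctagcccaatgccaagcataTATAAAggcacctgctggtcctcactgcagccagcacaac
Krt73, chr15:101802361-101802460: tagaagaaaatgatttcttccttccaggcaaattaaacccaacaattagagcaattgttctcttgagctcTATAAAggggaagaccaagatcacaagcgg
Krt32, chr11:100088270-100088369: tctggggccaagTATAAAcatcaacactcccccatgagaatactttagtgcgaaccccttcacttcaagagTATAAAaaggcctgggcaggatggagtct
Krtap3-2, chr11:99556854-99556953: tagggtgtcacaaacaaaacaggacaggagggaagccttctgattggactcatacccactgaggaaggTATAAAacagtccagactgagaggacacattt
Krt79, chr15:101940325-101940424: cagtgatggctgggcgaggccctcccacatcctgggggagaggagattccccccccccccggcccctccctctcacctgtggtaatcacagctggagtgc

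TATAAA began 30 bases before the RefSeq start in Krt25 and Krt73, 40 in Krt71, 29 in Krt32 (with another match 88 before), 32 in Krtap3-2 and 15 in Krt27. Measured from the GENCODE start these distances were 30 in Krt25, 44 in Krt73, 28 in Krt71, 72 and 131 in Krt32, 32 in Krtap3-2 and 29 in Krt27. The count within 20 to 40 bases was 13 of 23 from the GENCODE starts, against 14 from those of RefSeq. The letters TATAAA were not in the Krt79 window. Every one of the 7 matched inner root sheath keratins held TATAAA somewhere in the window on either strand, as did 4 of 6 shaft keratins and 7 of 8 Krtap genes. On the gene's strand and 20 to 40 bases before the RefSeq start the counts were 5 of 7, 3 of 6 and 6 of 8. CTTTGA, the core of the motif that LEF and TCF factors recognise, was in 9 of 23 member windows (39.1%) against 16.0% of all promoters, and 5 of those 9 were Krtap genes. TTTATT was in 6 members (26.1%) against 19.6% of all promoters, and shared no base with a TATAAA match in any promoter. Each motif was searched on both strands. CpG pairs were few: the median member window held 4, from 0 in Krtap3-2 and Krtap4-9 to 11 in Krt72, against a median of 7 over all promoters and 16 over the 18038 promoters of genes in either deposited table.

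**Figure D1:**
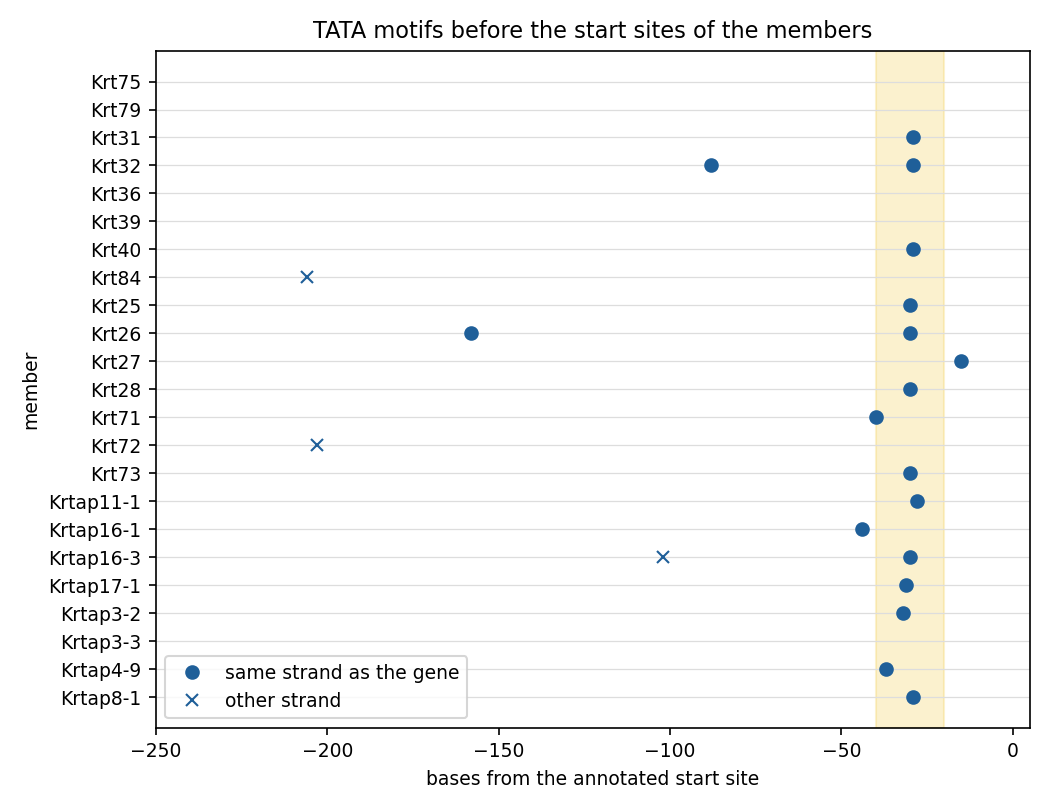
TATAAA motifs in the bases before the RefSeq start of the 23 members with a promoter in the table, by distance from the start (x axis, bases) and by gene (y axis). Filled circles are matches on the gene's strand and crosses matches on the other strand, the shaded band runs from 20 to 40 bases before the start, and 14 members have a circle inside it.

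The members lie in 2 keratin gene clusters and on 3 other chromosomes (GENCODE M21, GRCm38). Chromosome 11 holds 16 of the 32, from Krt25 at 99315516 to the end of Krt36 at 100105626, with type I keratins and Krtap genes side by side. Chromosome 15 holds the 9 type II keratins, from the start of Krt81 at 101459061 to the end of Krt79 at 101940324. The other Krtap genes are on chromosomes 10 (2 genes), 16 (4) and 1 (1). Krt32 shares 249 exon bases with Gm11571 and Krt75 shares 129 with Gm44460, each on the other strand. Krtap10-10 shares 567 exon bases with Gm2696 on its own strand and lies within Tspear, as does Krtap12-1, so reads of these 4 members may in part belong to the neighbour. Krtap genes and shaft keratins have near-identical copies, between which the authors' quantification could split reads, and their single values are uncertain for that reason.

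Eed-table libraries held 31699979 to 40701183 reads. In the Ring1 table replicate 1 of the control and 2KO groups held 25158144 and 19814853 reads, and replicate 2 held 7162907 and 6237389. Eed was listed at 1319 to 1845 normalised reads in its controls, against 1143 to 1412 in the Eed knockout, 80.0% of the control mean, and the groups overlapped. In the Ring1a/b 2KO the mean was 79.1% of control for Ring1 and 92.9% for Rnf2, also with overlap. Since the deleted exons are not given, these gene totals do not check the labels. Krt5 and Krt14, the basal keratins of the sorted cell type, were at the 99.9th percentile or above of all genes per kilobase in both sets of controls. The suprabasal keratins Krt10 and Krt1 were nearly as high in rank. They stood at the 99.9th and 99.5th percentiles in the Eed controls and at the 99.7th and 99.2nd in the Ring1 controls. Values below are the authors' normalised read counts, each table scaled by itself, so levels were compared only within a table.

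Almost all member reads came from Krt79. It made up 83.3% to 94.9% of them in the 10 libraries, and all members together made up 0.00853% to 0.0293% of a library's reads. Without Krt79 the members summed to 11.2 to 16.4 RPM (reads scaled to the library's total) in every library of both tables, a narrow range that covers controls and knockouts alike. Per kilobase of exon, Krt79 stood at 840 normalised reads in the Eed controls, at the 91.0th percentile of all genes, and at 211 in the Ring1 controls, at the 86.5th. The basal keratin Krt14 stood 268 times higher per kilobase than Krt79 in the Eed controls, against 203 times higher in the Ring1 controls. Krt17, a keratin of the outer root sheath and of stressed epidermis, stood 5.23 and 6.96 times higher than Krt79 on the same scale.

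The other members were far below Krt79 per kilobase. Krt32, a type I keratin of the shaft cuticle, stood at 125 normalised reads per kilobase in the Eed controls (57.4th percentile) and 43.1 in the Ring1 controls (54.4th). Krtap10-10 followed at 43.6 and 24.3 per kilobase. Krt26 and Krt27 of the inner root sheath stood at 11.1 and 3.05 per kilobase in the Eed controls, at the 30.7th and 18.8th percentiles. A read in all 6 libraries was found for 6 of the 29 members of the Eed table, and reads in 1 library only for 6. Among the 24 members of the Ring1 table, 6 had a read in all 4 libraries and 4 in 1 only. More than 50% of a member's reads came from 1 library for 11 of 29 members in the Eed table and 17 of 24 in the Ring1 table. Between 12 and 22 members had a read in an Eed-table library, and 11 to 21 in a Ring1-table library, where the shallow libraries had 12 and 11.

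Tests were run on genes with a mean of at least 5 normalised reads over the libraries of a table, with limma on log2(normalised count + 1). That filter was passed by 15 of 29 members in the Eed libraries (3 of 10 Krtap genes) and by 9 of 24 in the Ring1 libraries (1 of 8 Krtap genes). The 14 and 15 members left out had at most 18 reads each over a whole table, and a member could pass through 1 library alone. A log2 difference is knockout minus control on this scale. For low genes it can be smaller or larger than the log2 of the ratio of means. The added 1 shrinks it, while averaging logs gives libraries without reads much weight. A gene was called at a Benjamini-Hochberg adjusted p under 0.05 over all genes tested.

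**Figure D2:**
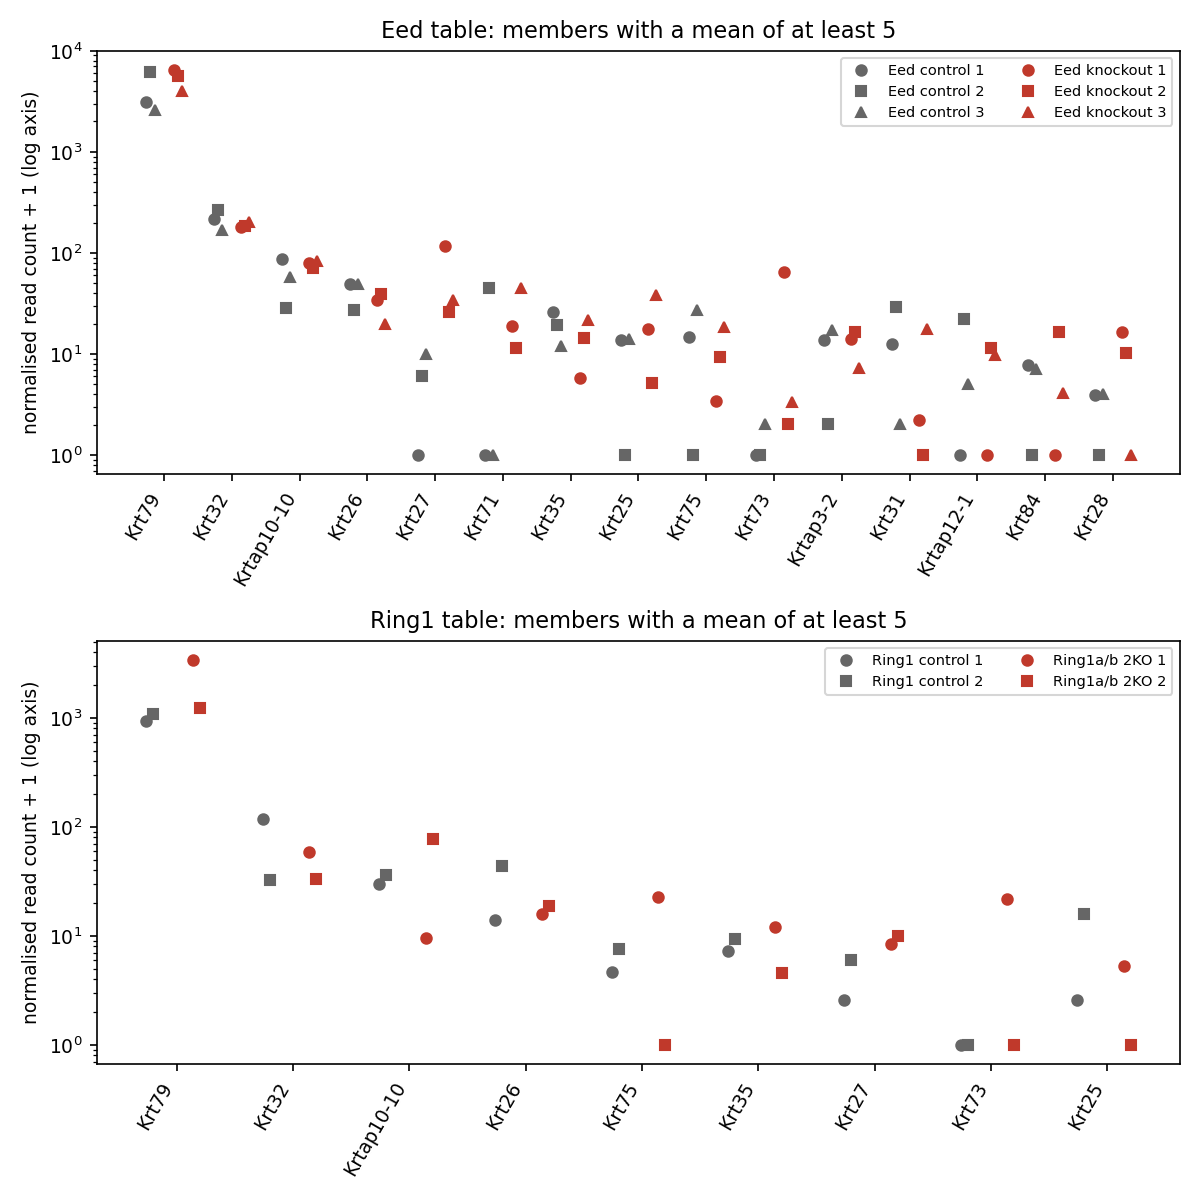
Normalised read count + 1 of each tested member in every library (y axis, log scale), members ordered by mean level (x axis), for the Eed table above and the Ring1 table below. Grey marks controls and red knockouts, and the mark's shape gives the replicate number. Krt79 stands between 2613 and 6460 in the Eed table, and members from Krt27 downward reach 0 in 1 or more libraries in most cases.

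In the Eed knockout, limma called none of the 15 tested members, and 0% of the 16122 genes tested passed as well (762 genes, 4.73%, had an unadjusted p under 0.05, 1 of them a member). On the same comparison edgeR's quasi-likelihood test called 0 genes (11 of the 15 members passed its own filter), and the authors' deposited table called 127 of 16684 (0.761%), among them 1 member, Krt27, as 1 of the 0.707% called higher. Of the 6 tested inner root sheath keratins 5 had a positive log2 difference (median 1.99), and of the 4 tested shaft keratins 1 had (median -0.38). These counts are a description with no test between the sets, and 3 of the 6 inner root sheath keratins (Krt27, Krt28 and Krt73) had a control mean under 5 and so passed the filter through the knockouts. Over all 15 tested members 10 differences were positive and 5 negative, with a median of 0.51, and over all genes tested 51.2% were positive with a median of 0.0080. The shaft keratin Krt84 also had a control mean under 5, at 4.30 against 6.24 in the knockouts. Thus 4 of the 15 passed the filter through the knockouts and all were positive, so the filter favours positive differences in this tally. The members' standard errors were wide, with a median of 1.21 on the log2 scale against 0.31 over all genes.

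Krt27, a type I keratin of the inner root sheath, had the largest difference. It was listed at 0, 5.07 and 9.10 normalised reads in the Eed controls and at 115, 24.9 and 33.1 in the knockouts, from 0, 5 and 9 reads against 96, 24 and 42. Every knockout library was above every control library, with means of 4.72 ± 4.56 and 57.7 ± 49.9 (SD, n = 3 each), a 12.2-fold ratio. limma gave a log2 difference of 3.57 (SE 0.996, unadjusted p = 0.00563, adjusted p = 0.747), and edgeR an adjusted p of 0.763. The authors' deposited table gave a log2 fold change of 3.61 with an adjusted p of 0.0451, just under the threshold, so this call rested on the choice of test. DESeq2 run again on the recovered reads gave the same call, which was lost without Eed knockout 1 (log2 2.63, DESeq2 adjusted p = 1.00), Eed knockout 3 (3.89, 0.0935), Eed control 1 (3.01, 0.218) or Eed control 2 (3.67, 0.105). The call was kept without Eed control 3 (4.51, 0.0449) or Eed knockout 2 (3.98, 0.0473), and the difference was positive in all 6 runs.

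Krt73, a type II partner in the inner root sheath, rested on a single library. It had 0, 0 and 1 reads in the Eed controls, against 53, 1 and 3 in the knockouts, so that 91.4% of its reads came from Eed knockout 1. The ratio of summed reads was 55.8, with a 95% counting interval of 9.62 to 2242 that covers counting error only. The log2 difference was 2.59 (SE 1.44, limma adjusted p = 0.989), and the authors' deposited table gave 5.96 with an adjusted p of 0.187. The library that was high for Krt27 was thus also the one high for Krt73.

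Krt71, another type II keratin of the inner root sheath, was spread differently. It was listed at 0, 43.6 and 0 in the Eed controls and at 18.0, 10.4 and 44.2 in the knockouts, so Eed control 2 reached the highest knockout. Its log2 difference was 2.59 (SE 1.44, limma adjusted p = 0.989), while the ratio of means was 1.66-fold and the authors' deposited table gave a log2 fold change of 0.74. DESeq2 on recovered reads called it only without Eed control 2, at a log2 difference of 7.06 and an adjusted p of 0.0172.

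Krt25, another type I inner root sheath keratin, was listed at 12.7, 0 and 13.1 in the Eed controls, against 16.8, 4.15 and 37.1 in the knockouts. The groups overlapped, and the log2 difference was 1.39 (SE 1.21, limma adjusted p = 0.989). Krt28 was listed at 2.92, 0 and 3.03 against 15.6, 9.33 and 0, a log2 difference of 1.15 (SE 1.32), with 1 knockout library at 0. Krt26, the inner root sheath keratin with the most reads, went the other way, at 47.7, 26.4 and 48.5 in the Eed controls, against 33.6, 38.4 and 18.9 in the knockouts (log2 difference -0.43, SE 0.520). The high library thus differed from gene to gene: Eed knockout 1 was highest for Krt27, Krt73 and Krt28, and Eed knockout 3 for Krt71 and Krt25.

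Summed over the inner root sheath keratins, the level was 64.3, 78.1 and 76.9 normalised reads in the Eed controls, against 263, 88.2 and 138 in the knockouts. The groups did not overlap, and the means were 73.1 ± 7.65 and 163 ± 89.8 (SD, n = 3 each), a 2.23-fold ratio that was 1.55 without Eed knockout 1 and 2.74 without Eed knockout 2. Without Krt27 the sums were 64.3, 73.0 and 67.8 against 147, 63.3 and 105, a 1.54-fold ratio with the groups overlapping, so the separation rested on Krt27. In RPM these keratins made up 1.91 to 2.33 in the controls, against 2.60 to 6.91 in the knockouts. In bulk libraries a few more cells of a type and more RNA in each cell cannot be told apart.

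**Figure D3:**
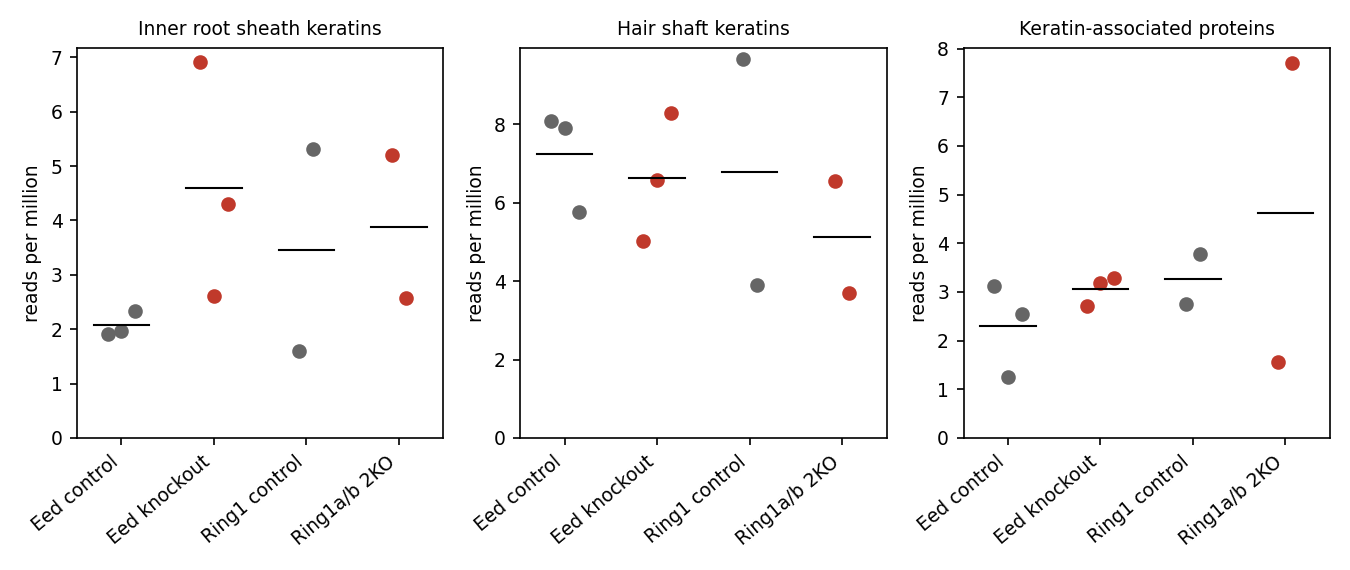
Summed RPM of the inner root sheath keratins, the hair shaft keratins and the keratin-associated proteins in each library (y axis), by group (x axis). Each point is 1 library and the line is the group mean, and the inner root sheath is the set in which the Eed controls (1.91 to 2.33) and the Eed knockouts (2.60 to 6.91) do not overlap, while shaft keratins overlap in both comparisons.

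The 4 tested shaft keratins overlapped between Eed controls and Eed knockouts, as did the sum over all listed shaft keratins. Krt32 was listed at 214, 265 and 169 in the controls and at 180, 186 and 202 in the knockouts, with means of 216 ± 48.0 and 189 ± 11.5 (SD, n = 3 each) and a log2 difference of -0.17 (SE 0.299, limma adjusted p = 0.989). Krt35, an early shaft keratin of the matrix and cuticle, was listed at 25.3, 18.3 and 11.1 against 4.80, 13.5 and 20.5 (log2 difference -0.59, SE 0.719). Krt31, a cortex keratin, was listed at 11.7, 28.4 and 1.01 against 1.20, 0 and 16.6 (log2 difference -1.43, SE 1.37), and most of its control level came from Eed control 2. Krt84, the 1 tested type II shaft keratin, was listed at 6.82, 0 and 6.07 against 0, 15.6 and 3.16 (log2 difference 0.11, SE 1.35). Together the shaft keratins summed to 273, 313 and 190 normalised reads in the controls, against 191, 223 and 267 in the knockouts, a ratio of 0.876.

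Krt79 of the hair canal was listed at 3127, 6242 and 2613 in the Eed controls and at 6460, 5665 and 4042 in the knockouts. Eed control 2 was as high as the knockouts, and the means of 3994 ± 1963 and 5389 ± 1233 (SD, n = 3 each) differed by less than the control SD. Its log2 difference was 0.51 (SE 0.322, limma adjusted p = 0.989). Krt75 of the companion layer was listed at 13.6, 0 and 26.3 against 2.40, 8.30 and 17.4, with overlap and a log2 difference of 0.18 (SE 1.29) that was -0.50 in the authors' deposited table.

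Among Krtap genes, Krtap10-10 was listed at 86.7, 27.4 and 56.6 in the Eed controls, against 79.1, 70.5 and 82.8 in the knockouts (log2 difference 0.58, SE 0.490, limma adjusted p = 0.989). Krtap3-2, a member of the high sulfur group of the cortex, was listed at 12.7, 1.01 and 16.2 against 13.2, 15.6 and 6.31 (log2 difference 0.62, SE 0.960). Krtap12-1 was listed at 0, 21.3 and 4.05 against 0, 10.4 and 8.68 (log2 difference -0.01, SE 1.41). Without Eed control 2, the lowest control for Krtap10-10 and Krtap3-2, their limma log2 differences were 0.14 and -0.36. Summed over all 10 listed Krtap genes, the Eed controls held 105, 49.7 and 83.9 normalised reads and the knockouts 103, 108 and 106, a 1.33-fold ratio of means.

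Without a filter on level, 3 of the 29 listed members had every Eed knockout above every control (Krt27, Krt73 and Krt86), against 4.92% of all 18502 genes, and 1 had every knockout below (Krt33a), against 3.83%. For Krt73 the order came from the scaling alone, since 1 read in Eed knockout 2 (1.04 normalised) stood against 1 read in Eed control 3 (1.01). Krt27 and Krt73 were also the 2 of the 15 tested members above every control, against 5.06% of the genes tested, while Krt86 and Krt33a fell below the filter. Krt86 and Krt33a were singled out after their values were seen. Krt86, a type II shaft keratin, had 0 reads in all Eed controls, against 3, 4 and 4 in the knockouts, at least 1.21-fold higher than a floor of 3 reads per control library. Krt33a had 2 reads in each control, against 0, 0 and 1 in the knockouts. In all, 6 listed members had no read in any Eed control and 3 had none in any Eed knockout, each with 14 reads or fewer in the other group. The same counts were not taken over all genes, so no direction is read from them.

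**Figure D4:**
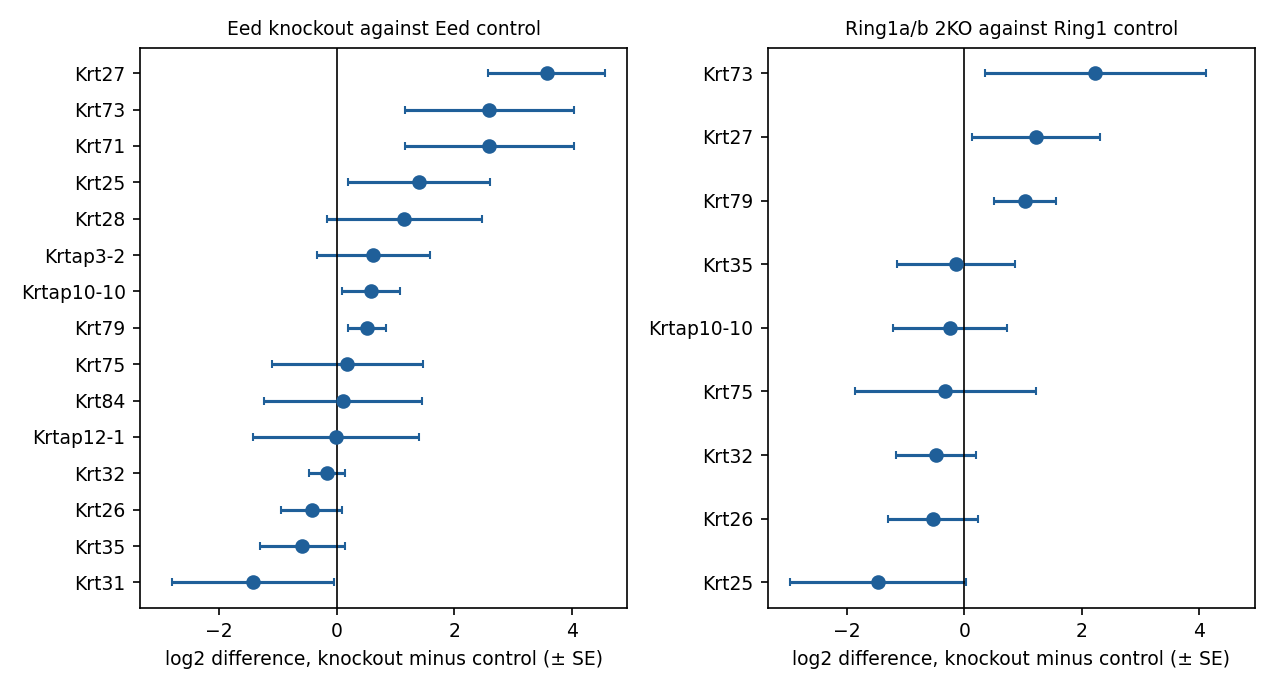
log2 difference, knockout minus control, of each tested member (points, with ± 1 limma standard error) for the Eed comparison on the left and the Ring1 comparison on the right. Inner root sheath keratins take the 5 highest places on the left, from Krt27 at 3.57 to Krt28 at 1.15, while on the right Krt73 is highest at 2.23 and Krt25 lowest at -1.47.

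In the Ring1a/b 2KO none of the 9 tested members was called by limma, against 0.0392% of the 15310 genes tested (6 genes), and none had an unadjusted p under 0.05, against 10.4% of all genes. The authors' deposited table, which called 231 of 15498 genes (1.49%), called no member either. edgeR, which called 6 genes (0.0412%), called none of the 4 members that passed its own filter and gave no value for the other 5. Of the 9 limma differences 3 were positive and 6 negative, with a median of -0.25 against -0.0006 over all genes, and a median standard error of 1.01 against 0.335. Of the 3 positive ones, Krt27 and Krt73 had a control mean under 5 and passed the filter through the 2KO. Krt25, with a mean of 2.16 in the 2KO, passed it through the controls. In the authors' deposited table the same 9 members had the opposite tally, 6 positive and 3 negative with a median of 0.40, so no common direction was shown. With 2 libraries a group, and replicate 2 shallow in both, members with few reads had little precision.

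Krt79 was the member with most reads here too. It was listed at 930 and 1075 in the Ring1 controls and at 3407 and 1228 in the Ring1a/b 2KO. Both 2KO libraries were above both controls, with means of 1003 ± 102 and 2318 ± 1540 (SD, n = 2 each) and a 2.31-fold ratio. The log2 difference was 1.03 (SE 0.528, limma adjusted p = 0.588), and the authors' deposited table gave 1.21 with an adjusted p of 0.179. The difference lay in 2KO library 1: without it the limma log2 difference was 0.30, and without 2KO library 2 it was 1.77. That last fit gave a limma adjusted p of 0.0289, but it holds 1 knockout library, which is assumed to vary like the controls. Of the 8 listed genes of the upper follicle, hair canal and sebaceous gland 2 had a positive limma difference in this comparison, with a median of -0.19.

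Krt27 was listed at 1.56 and 4.99 in the Ring1 controls, against 7.42 and 8.97 in the 2KO, from 3 and 3 reads against 12 and 5. The groups did not overlap, but the means of 3.27 ± 2.42 and 8.19 ± 1.09 (SD, n = 2 each) rested on 23 reads. The ratio of summed reads was 3.28 (95% counting interval 1.24 to 10.2), and the log2 difference 1.23 (SE 1.09, limma adjusted p = 0.740). Krt73 again came from 1 library, with 34 reads in 2KO library 1 and 0 in the other 3, which makes the 2KO mean at least 3.21-fold higher than a floor of 3 reads per control library (log2 difference 2.23, SE 1.88, limma adjusted p = 0.725).

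Of the other inner root sheath keratins, Krt72 had both 2KO libraries above both controls, on 5 reads in all. The rest overlapped between the Ring1 groups. Krt26 was listed at 13.0 and 43.2 in the Ring1 controls, against 14.8 and 17.9 in the 2KO (log2 difference -0.52, SE 0.765). Krt25 was listed at 1.56 and 14.96 against 4.33 and 0 (log2 difference -1.47, SE 1.50), the lowest of the 9. Krt71, below the filter, was listed at 2.60 and 0 against 8.03 and 0, and Krt28 at 1.56 and 0 against 6.18 and 0. Summed, the inner root sheath keratins held 20.8 and 63.1 normalised reads in the Ring1 controls, against 63.7 and 28.7 in the 2KO, a 1.10-fold ratio with the groups overlapping.

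Shaft keratins summed to 127 and 46.5 normalised reads in the Ring1 controls, against 80.3 and 41.2 in the 2KO, a ratio of 0.702 with the groups overlapping. Krt32 was listed at 117 and 31.6 against 58.1 and 32.3 (log2 difference -0.48, SE 0.681, limma adjusted p = 0.847), and both replicate 2 libraries were near 32. Krt35 was listed at 6.25 and 8.31 against 11.1 and 3.59 (log2 difference -0.14, SE 1.01). Krt75 was listed at 3.65 and 6.65 against 21.6 and 0 (log2 difference -0.33, SE 1.54), and the authors' deposited table gave the opposite sign, 1.15. Krtap10-10 was listed at 28.7 and 34.9 against 8.65 and 77.1 (log2 difference -0.25, SE 0.969), so the 2 knockout libraries lay on either side of the controls. Krtap3-2, below the filter, was listed at 3.65 and 6.65 against 3.71 and 0. Summed over the members the ratio of means was 2.11, and without Krt79 it was 0.979.

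Of the 24 listed members 7 had both 2KO libraries above both controls, against 20.5% of all 18344 genes, and 1 had both below, against 19.2%. The 7 were Krt79, Krt27 and 5 members below the filter, Krt36, Krt72, Krt83, Krtap12-1 and Krtap16-1, which were named after their values were seen and had 4 to 13 reads each. Krt36, a type I shaft keratin, had 0 reads in both Ring1 controls, against 12 and 1 in the 2KO, at least 1.41-fold higher than the floor.

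The effects of the knockouts on the members were then compared directly, with 1 limma fit over all 10 libraries and the difference of the differences, Eed minus Ring1. None of the 13 members tested was called, and neither was any of the 15924 genes tested (0%; 316 genes and 0 members had an unadjusted p under 0.05). For Krt27 the difference was 2.34 (SE 1.48) and for Krt25 2.86 (SE 1.98), the largest of the 13, and for Krt79 -0.52 (SE 0.624), each with a limma adjusted p of 1.00. Standard errors of this size do not show that the knockouts act alike.

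Other genes of the hair program were read from lists. Of 16 regulators of shaft and root sheath differentiation, limma called none in either comparison, and the medians were -0.08 with Eed lost (7 of 16 positive) and -0.11 with both Ring1 genes lost (7 of 16 positive). Msx1, a homeobox factor of the hair matrix, was listed at 2.92, 2.03 and 6.07 in the Eed controls, against 64.7, 33.2 and 30.0 in the knockouts, and rose in the authors' deposited table (log2 fold change 3.53, adjusted p = 0.00851; limma 3.23, adjusted p = 0.537). Hoxc13, which drives shaft keratin genes, was listed at 8.77, 53.8 and 53.6 against 347, 93.3 and 161, with an adjusted p of 0.0503 in the authors' deposited table (limma log2 difference 2.50, SE 0.745, adjusted p = 0.806). Lef1, a Wnt effector in the matrix, was listed at 69.1, 59.9 and 96.1 against 332, 124 and 140 (limma log2 difference 1.28, SE 0.451, adjusted p = 0.921). These 3 regulators were picked for an unadjusted limma p under 0.05. In each, every Eed knockout was above every control, against 5.06% of the genes tested. Eed knockout 1 was highest for them, as it was for Krt27 and Krt73. Cux1 of the same list had every Eed knockout below every control, against 4.15% of the genes tested. Its values were 8590, 9642 and 8955 in the Eed controls against 6867, 8152 and 7046 in the knockouts.

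In the Ring1a/b 2KO, Trps1, a zinc finger factor of the follicle, was listed at 339 and 296 in the controls, against 665 and 649 in the 2KO and rose in the authors' deposited table (log2 fold change 1.05, adjusted p = 0.0228; limma adjusted p = 0.197). Lef1 was listed at 104 and 116 against 189 and 332 (limma log2 difference 1.18, adjusted p = 0.349), and Dlx3 and Bmp4 had limma differences of 1.63 and -1.06 at adjusted p of 0.403 and 0.413. Of the regulators, Dlx3, Lef1, Msx1, Shh and Trps1 had both 2KO libraries above both controls, against 21.4% of the genes tested. Bmp4, Cux1, Gata3, Prdm1 and Wnt10b had both 2KO libraries below both controls, against 21.5%. Among 13 other structural genes of the shaft and sheath, 9 of 11 tested had a positive limma difference in the Eed knockout (median 0.61) and 9 of 9 in the 2KO (median 1.86), with no limma call. The mean of Krt16 was nevertheless lower in the 2KO, at 2059 against 2362 in the Ring1 controls. Vsig8, below the filter in the Ring1 table, was lower there, at 6.77 and 6.65 against 1.85 and 3.59 in the 2KO. Its Eed values were 6.82, 0 and 3.03 in the controls against 27.6, 24.9 and 25.2 in the knockouts. Padi1 and Lrrc15, also below the filter in the Ring1 table, had higher means in the 2KO. Krt6a, a keratin of the companion layer that also appears in stressed epidermis, was listed at 1634, 808 and 1342 in the Eed controls, against 34323, 4531 and 7210 in the knockouts. In the Ring1 table it was at 147 and 389 against 1788 and 4465, and the authors' deposited tables called it in both (adjusted p = 0.0228 and 0.00926). Tchh, the granule protein of the inner root sheath, was listed at 592 to 858 in the Eed controls, against 550 to 866 in the knockouts, with overlap.

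Markers of other cells also differed between the groups, and their part in the results was not tested. The 10 genes of the bulge and outer root sheath had a median of 0.68 for the Eed comparison and 0.64 for the Ring1 comparison, with Lhx2, Cd34 and Lgr5 called higher in the authors' deposited table for the 2KO. The bulge keratin Krt15, 1 of the 3 negative genes of that list in the 2KO, was listed at 35361 and 23217 in the Ring1 controls against 18078 and 11459 in the 2KO (limma log2 difference -0.99, unadjusted p = 0.00967, adjusted p = 0.349). In the Eed table its means were 174248 and 139586, with overlap. All 7 fibroblast and dermal papilla genes had a positive limma difference in both comparisons. The ratio of means went the other way for Alx4 in the Eed table (13.7 in controls, 13.6 in knockouts). It did so for Col1a2 in the Ring1 table as well (10.4 in controls, 8.78 in the 2KO). The sum of the 7 was 64.9 to 270 in the Eed controls and 315 to 995 in the Eed knockouts. It was 95.3 to 131 in the Ring1 controls, against 176 to 821 in the 2KO. In the Eed comparison Dcn, a matrix protein of fibroblasts, had an adjusted p of 0.000238 in the authors' deposited table. It was listed at 19.5, 34.5 and 74.8 in the Eed controls against 863, 306 and 129 in the knockouts. All other genes of that list except Crabp1 overlapped between the Eed groups. In 2KO library 1 Dcn made up 691 of the 821. Melanocyte genes, all 6 of which were listed in each table, summed to 141 to 344 in the Eed controls, 201 to 324 in the Eed knockouts, 59.9 to 94.7 in the Ring1 controls, against 185 to 502 in the 2KO. Within that list Mlana was listed at 0 in all Eed controls against 49.2, 7.26 and 41.0 in the knockouts, and Tyrp1 at 0 in both Ring1 controls against 116 and 48.4 in the 2KO. In the authors' deposited tables their adjusted p was 0.00168 and 3.481e-05. Of the 5 melanocyte genes tested by limma in the Eed comparison 3 were positive and 2 negative, with a median of 0.03. Tyr and Pmel had lower means in the Eed knockouts, at 57.0 against 42.4 and 156 against 112. In the 2KO all 6 melanocyte genes had a positive limma difference (median 2.61). All 4 suprabasal genes had a negative limma difference in the Eed knockout (median -0.62, none called). In the 2KO 2 were positive and 2 negative, and the authors' deposited table called Krt1 higher (adjusted p = 0.00247) and Lor lower (0.00592). Itga6, the α6-integrin of the sort, had a limma log2 difference of -0.68 in the 2KO (unadjusted p = 0.0137, adjusted p = 0.372). Proliferation genes summed to 45000 to 51877 against 37991 to 77672 in the Eed table and 18557 to 22437 against 21818 to 28776 in the Ring1 table. Eed knockout 1, highest for Krt27 and Krt73, also held the highest fibroblast and proliferation sums of its table. Most of that fibroblast sum was the single gene Dcn, at 863 of 995.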

How the data were processed

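RNA was measured in 10 libraries of amplified total RNA by paired-end sequencing. Per the submitters' processing notes the authors used kallisto 0.42.5 and DESeq2 3.11 with mm10. Strand marking and settings are not stated there. The per-library values the authors deposited are normalized counts (a signal unit), and dividing each library by its step gave whole reads for 100% of them (tolerance 1e-06). The log2 fold changes and the p-values, raw and adjusted, of the authors' deposited tables were used as they stand; the test statistic (a score) in the deposited tables was not used.

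Genes with a mean of 5 or more entered limma 3.58.1 (R 4.3.3; trend, robust) as log2(value + 1), each knockout against its own controls, and only the members were read off. edgeR 4.0.16 and DESeq2 1.42.0 on recovered reads, other pseudocounts, no filter, quantile scaling, a replicate block, 1 fit over 10 libraries and leaving out each library were alternatives. The runs of DESeq2 without each library were chosen after seeing the data, as were the inner root sheath sum without Krt27 and the distances from GENCODE starts. The members, roles and lists were chosen with earlier results of these data known. Values in every library are given for up to 4 members of each role with a mean of at least 5 in a table. They are also given for members called by any test and for the 3 largest differences in each direction. The plan was to give them for up to 4 genes of each list with an unadjusted limma p under 0.05 as well. Only some of those genes are shown here. Krt71, Krt28 and Vsig8 in the Ring1 table and Tchh, and Krt15 in the Eed table, were added after their values were seen. All tests were two-sided and the scripts were tested on simulated data.

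Folds are ratios of group means. Intervals and floors (3 reads) cover counting error only, since amplified reads are not independent molecules. Nothing states that each library is a separate mouse, so p-values measure the spread between these samples. A split of the Krtap genes by protein composition was planned and not made here.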

Additional observations from a re-analysis of the deposited data

How the results depend on the processing

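Members other than Krt79 had few reads, so single libraries decided most of their values, and a missing call does not show an unchanged level. Across the alternatives 79 of the counts, medians and sums moved by less than the spread between replicates (counts by 1.5 times at most), and 14 moved further. Many of the 79 were counts of called members that stayed at 0 where few or no genes were called at all. Among those 79, the Ring1 median of -0.25 turned positive with DESeq2 and the deposited table (0.40) and without control 2 (0.17) or 2KO library 2 (0.25). The cause of the changes below was not tested.

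In the Eed knockout, DESeq2 on recovered reads and the authors' deposited table each called 1 member where limma called 0, Krt27 at a log2 difference of 3.61. Krt27 was called by DESeq2 without control 3 (4.51) and without knockout 2 (3.98) as well. Without control 2 DESeq2 called Krt71 (7.06) in its place, and without knockout 3 the Krt71 difference was -0.042. DESeq2 counts without single libraries ran from 0 to 1, and limma counts were 0. The median over tested members fell from 0.51 to 0.10 with quantile normalization and 0.21 with edgeR, and ran from 0.058 to 0.81 as single libraries were left out. Signs turned for Krt75 with a pseudocount of 5 (-0.14), quantile normalization (-0.33), edgeR (-0.46), DESeq2 and the deposited table (-0.50), and without control 2 (-1.26) or knockout 3 (-0.39); its range was -1.26 to 1.12. They also turned for Krt84 with quantile normalization (-0.38) and without control 2 (-0.86; range -0.86 to 1.12), for Krtap12-1 with a pseudocount of 0.5 (0.0032), without control 3 (0.02) or knockout 1 (1.12; range -1.15 to 1.12), and for Krtap3-2 without control 2 (-0.36; range -0.36 to 1.19).

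In the Ring1a/b 2KO, limma and DESeq2 each called 1 member without 2KO library 2, Krt79 (1.77 with limma; 1.78 with DESeq2, adjusted p = 1.378e-06), in fits where the lone 2KO library is assumed to vary like the controls, and the count ran from 0 to 1. Signs turned for Krt75 with a pseudocount of 5 (0.20), DESeq2 and the deposited table (1.15), and without control 2 (0.03) or 2KO library 2 (1.92; range -0.68 to 1.92). They turned for Krt35 with DESeq2 and the deposited table (0.084), and without control 2 (0.040) or 2KO library 2 (0.56; range -0.84 to 0.56). Krtap10-10 was positive with edgeR, DESeq2 and the deposited table (0.40) and without 2KO library 1 (1.26; range -1.76 to 1.26), Krt26 without control 2 (0.30; range -1.35 to 0.30) and Krt32 without control 1 (0.45; range -1.41 to 0.45). The log2 ratio of summed members was 1.08, -0.031 without Krt79, -0.082 without Krt75 and Krt79, and 0.23 to 1.61 as single libraries were left out. The Krt79 difference between the knockouts ran from -1.26 to 0.22.

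In the Eed table the column names give same-numbered libraries a shared letter (A, B or C), and nothing states what it marks. Same-numbered libraries deviated from their group means with correlations of -0.11, 0.15 and 0.21 there, and Eed control 1 did not correlate best with its own number. The Ring1 value was 0.14, but with 2 libraries a group the deviations mirror each other and do not test a pairing. Whether samples were paired is thus not settled, and the main fits did not pair them. With the replicate number as a block, limma called 1 gene in place of 0 in the Eed knockout and 36 in place of 6 in the Ring1a/b 2KO, and 0 members in either.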
